A study of Mus musculus with 13 samples.

Results

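The metabotropic glutamate receptor genes were followed through nuclei of the aged and diet-restricted mouse hippocampus. The 6 genes Grm2, Grm3, Grm4, Grm5, Grm7 and Grm8 were taken by symbol from the 32285 genes of the deposited matrices. They were picked with earlier results from these libraries in view, among them a rise of Grm8 with age in granule neurons. Levels and age differences are therefore descriptions. Where the text says which or how many age differences passed or missed the threshold of the fit across all genes, under any setting, that is not independent evidence. Nothing is read from it. The same holds where the age difference of a member is set beside those of all genes. Tests are read only for diet restriction. They are not free of the choice either, since the genes were picked with their pattern over the groups in view. The long-term and acute comparisons with ad libitum mice also reuse the old libraries in which Grm8 was known to be higher.

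Metabotropic glutamate receptors are G protein-coupled receptors that sense glutamate and adjust synaptic strength more slowly than the ion channel receptors do. Group I receptors, such as the mGluR5 encoded by Grm5, act mostly at the postsynaptic membrane through Gq, phospholipase C and calcium release. Group II receptors (Grm2, Grm3) and group III receptors (Grm4, Grm7, Grm8) couple to Gi/o, lower cyclic AMP, and many of them sit on axon terminals, where they limit transmitter release. Grm3 is also known from glia.

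Single-nucleus libraries were made from frozen hippocampus of female mice of the C3HB6F1 hybrid strain (spelled C3B6F1 in the series text). The young group fed ad libitum was 5 months old (3 libraries). Each of the other groups was 24 months old: ad libitum (3 libraries), acute restriction, with restricted feeding from 20 months (3 libraries), and long-term restriction, with restricted feeding from 5 months (4 libraries). No genetic change is named in any group, and the degree of restriction is not given in the sources used here. Each library is treated as 1 mouse. The labels number the samples without saying outright that they are separate animals. Each p-value therefore sets a group difference against the spread between these samples, estimated over all 4 groups.

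After filters, 98041 nuclei remained of 105759 barcodes, and the libraries held 38546292 to 80538090 UMIs (unique molecular identifiers, counts of single captured RNA molecules). Median UMIs per retained nucleus ran from 3801 in young replicate 2 to 11375 in old ad libitum replicate 1. Libraries numbered 1 deviated together from their group means across genes in several classes, so the 4 age differences that passed the threshold are also given without them, an alternative added after seeing the data. Clustering with every metabotropic receptor gene left out, and naming from marker genes, placed 79427 nuclei in 14 classes. The other 18614 nuclei lay in clusters that the markers did not name. Each class is called "-like" because the names are rebuilt from markers. The share of a class's markers that were highest in that class ran from 3 of 5 for CA1-like and CA3-like nuclei to 7 of 7 for granule-like and oligodendrocyte-like nuclei. In the macrophage-like class 46.7% of barcodes were scored as doublets before filtering. Pairs of libraries shared 3 to 40 barcode sequences.

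Grm5, the group I member, had its highest levels in classes of neurons. Its level, as UMIs of the gene scaled to a fixed total of the class's UMIs (CPM), had a median over mice of 3345 in CA1-like nuclei (2363 to 3710, 13 mice). Mossy-like nuclei were next at 3288 (3050 to 3825, 8 mice), and the ranges of these first classes overlapped. CA3-like nuclei had 2652, granule-like nuclei 2527 and inhibitory-like nuclei 2364. Oligodendrocyte precursor-like nuclei had 1503 (1016 to 1704), between those neurons and the mature oligodendrocyte-like nuclei at 173 and astrocyte-like nuclei at 174. Among the neuron classes only Cajal-Retzius-like nuclei were also low, at 382. Outside neurons, macrophage-like nuclei, with their many doublet scores, had 1845. Mural-like nuclei had 1136 (307 to 1646) and endothelial-like nuclei 838. Among inhibitory nuclei, Somatostatin-like, Parvalbumin-like and Lamp5-like sub-clusters had 3025, 2760 and 2497 CPM. Vip-like nuclei, at 1254, lay below those without overlap, and Cnr1/Cck-like nuclei had 781.

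Grm3 had a different distribution. It reached a median of 2062 CPM (1487 to 2453) in oligodendrocyte-like nuclei, 1992 (1421 to 3350) in mural-like nuclei, the cells that wrap small vessels, and 1683 (1454 to 2385) in astrocyte-like nuclei. These 3 ranges overlapped one another and lay above the remaining classes, of which granule-like nuclei had 39.5 (32.4 to 71.1) and CA3-like nuclei 14.9. Shares of nuclei were made equal in depth by thinning each nucleus to 1000 UMIs and leaving out shallower ones. This left out 347 of 10000 oligodendrocyte-like nuclei, 186 of them from the 732 of young replicate 2, and 68 of 40472 granule-like nuclei. After thinning, Grm3 was found in 83.2% of oligodendrocyte-like and 74.8% of astrocyte-like nuclei, against 4.38% of granule-like nuclei. Unthinned shares were 93.0%, 92.5% and 19.5% at median depths of 1885.5, 2700 and 6369 UMIs.

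Grm2, the other group II gene, was sparse, and among the named classes 2 stood out. Granule-like nuclei had a median of 21.9 CPM (17.1 to 30.3, from 6091 UMIs in all). Cajal-Retzius-like nuclei, a Reln-rich cell type of the outer layers, had 25.0 and at most 73.3, from only 20 UMIs. Every other named class had a median of at most 5.38 CPM. Unnamed clusters reached the granule-like level too, with 27.5 (20.5 to 39.0) in cluster 7 from 736 UMIs, 21.7 (13.5 to 28.3) in cluster 25 and 30.9 (5.15 to 60.9) in cluster 34. Grm2 is known from granule neurons, whose mossy fibre terminals carry the receptor. After thinning, 2.20% of granule-like nuclei held a Grm2 UMI, against 0.290% of oligodendrocyte-like and 0.272% of astrocyte-like nuclei. Unthinned shares were 13.4%, 0.59% and 0.758% at the median depths given above.

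Grm7, a group III gene, was found in neurons, oligodendrocyte-like nuclei and vessel cells. It had a median of 3726 CPM (2231 to 5002) in mural-like nuclei and 3202 (2699 to 3618) in mossy-like nuclei. CA3-like nuclei followed with 2459, granule-like with 2403, CA1-like with 1868 and oligodendrocyte-like with 1503 (921 to 1971). Astrocyte-like nuclei had 81.3. Which class came first depended on the measure: mossy-like nuclei led by the thinned share of nuclei with a UMI and CA1-like nuclei by the unthinned share.

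Grm8 was concentrated in mossy-like nuclei at 676 CPM (161 to 1088) and inhibitory-like nuclei at 317 (207 to 349), with granule-like nuclei at 175 (49.2 to 220). The wide mossy-like range overlapped both of the others. The macrophage-like class, with its many doublet scores, had 252. CA3-like, precursor-like and astrocyte-like nuclei had 18.7, 18.1 and 13.2. Within the inhibitory class, 5 of 13 sub-clusters were named, and Grm8 set only the Vip-like one apart. The ranges of the other named sub-clusters each overlapped the next. Vip-like interneurons, which mostly inhibit other interneurons, had 1466 CPM (870 to 1657, 13 mice) and lay above the Somatostatin-like nuclei at 242, Cnr1/Cck-like at 117, Lamp5-like at 64.8 and Parvalbumin-like at 24.3. Grm7 was also highest in the Vip-like sub-cluster, at 3173 CPM against 1824 in Somatostatin-like nuclei and 347 or less in the remaining named sub-clusters. Grm8 was found in 57.1% of thinned Vip-like nuclei and in 2.99% of thinned Parvalbumin-like nuclei, or 73.8% and 17.9% unthinned.

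Grm4 reached 21.5 CPM in mossy-like nuclei (9.03 to 36.6, from 54 UMIs in the 8 libraries with at least 20 such nuclei) and 14.3 (10.2 to 16.3) in inhibitory-like nuclei. Granule-like nuclei had 1.82, and a Grm4 UMI was found in 0 of 383 mural-like nuclei, which allows a share of up to 0.783% (counting error only). At their median depth of 1387 UMIs this limits nuclei with a UMI, not nuclei that express so sparse a gene.

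**Figure D1:**
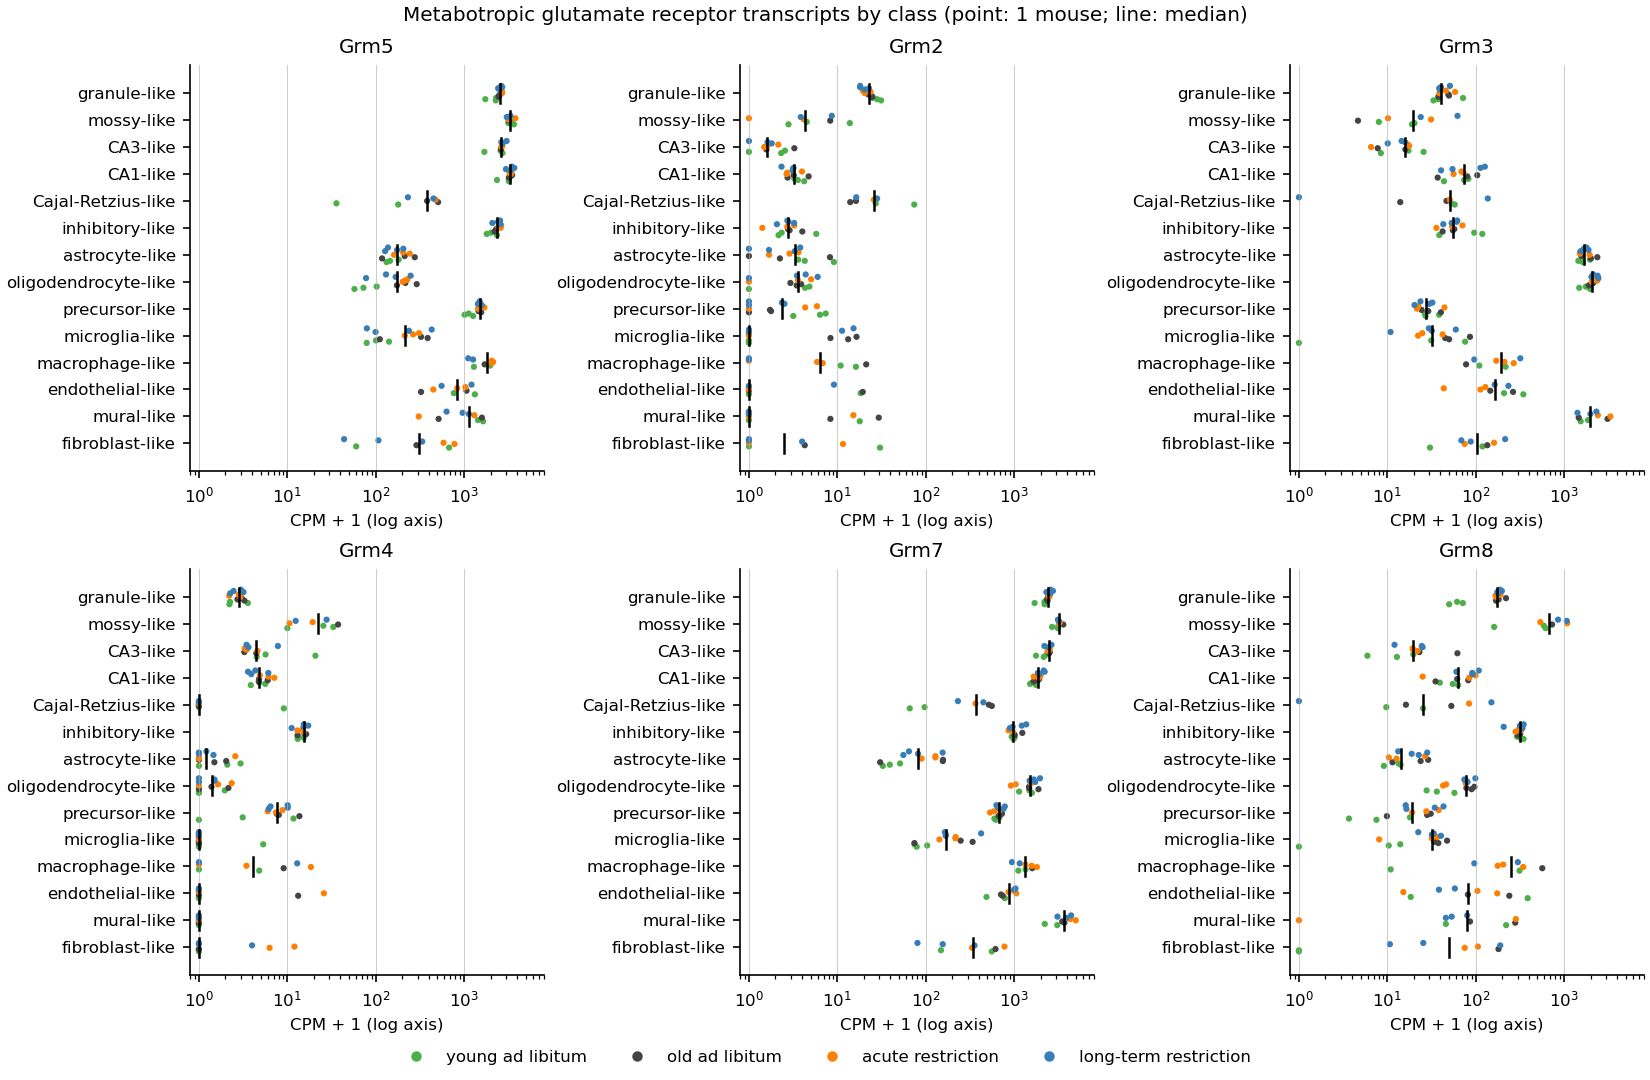
Level of each metabotropic receptor gene in every class, as CPM + 1 on a log axis, with 1 point per mouse coloured by group and a line at the median. Grm3 is high in oligodendrocyte-like, mural-like and astrocyte-like nuclei. Grm5 is low in the oligodendrocyte-like and astrocyte-like nuclei but not in the mural-like nuclei. Grm2 and Grm4 stay under 100 CPM in every class.

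**Figure D2:**
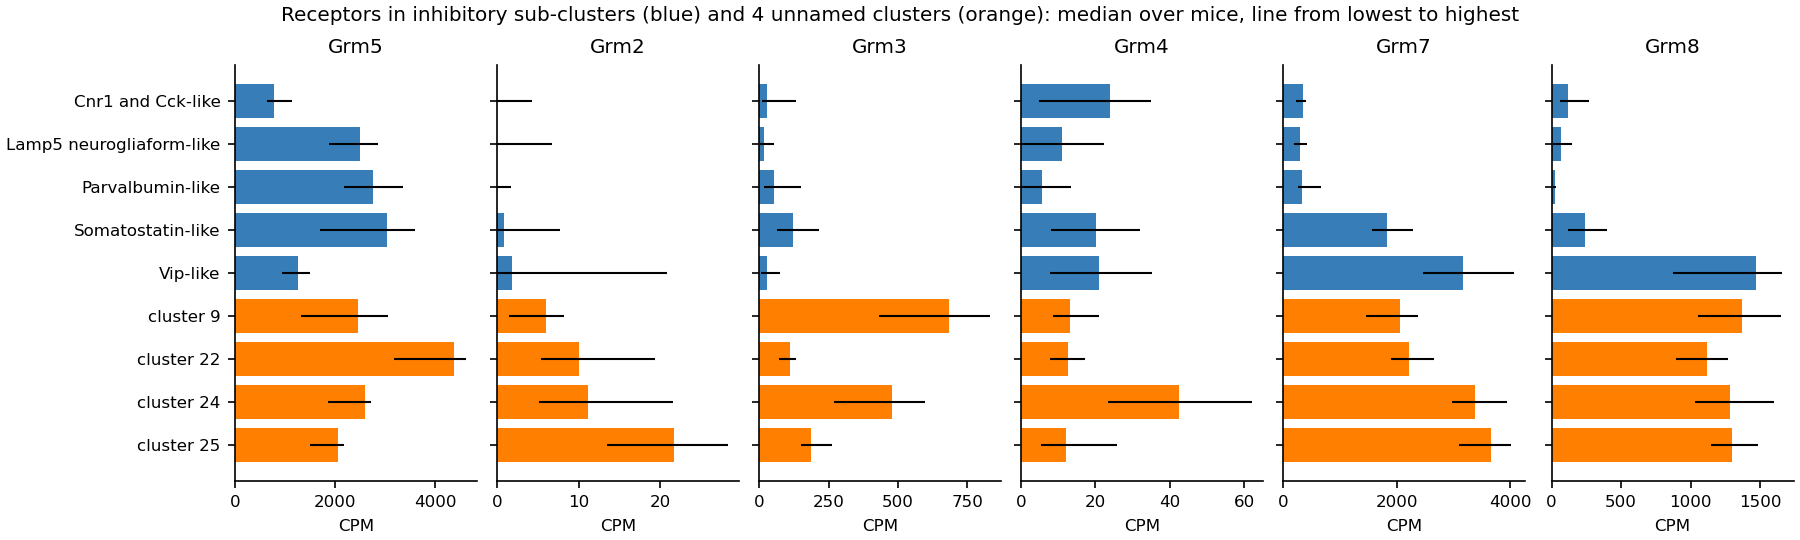
Level of the 6 genes in CPM in the 5 named inhibitory sub-clusters (blue) and 4 unnamed clusters with high Grm8 (orange), with a bar at the median over mice and a line from the lowest to the highest mouse. The Grm8 line of Vip-like nuclei, from 870 to 1657 CPM, lies above those of the other named sub-clusters.

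Levels of different genes were compared only per kilobase of the gene's span. Whether reads in introns were counted is not given in the sources used here, and if they were not, the span is not the length that was counted and these values do not rank the genes. The spans differ widely (GRCm38, that is mm10, with GENCODE vM21 annotation). Grm2 spans 12.988 kb on chr9:106643095-106656082 and Grm4 99.017 kb on chr17:27422387-27521403, both on the minus strand. Grm3 spans 239.63 kb on chr5:9485541-9725170, minus strand, and Grm5 550.74 kb on chr7:87584168-88134907, plus strand. Grm7 spans 921.65 kb on chr6:110645581-111567230, plus strand, and Grm8 860.06 kb on chr6:27275119-28135178, minus strand. Each span also holds other annotated genes, such as Gm28111 on the opposite strand of Grm2 and Mir592 inside Grm8, and whether the authors' counting used strand is not given in the sources used here. Per kilobase, the order in granule-like nuclei was Grm5 with 4.59 CPM per kb, Grm7 with 2.61, Grm2 with 1.68, Grm8 with 0.203, Grm3 with 0.165 and Grm4 with 0.0183. In oligodendrocyte-like nuclei Grm3 had 8.61 CPM per kb and Grm7 1.63, and in mural-like nuclei these were 8.31 and 4.04.

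The genes whose pattern over the 14 classes was most like each member were found by Pearson correlation of mean log2 CPM among 13968 genes. The classes share libraries and differ in depth, so the values are descriptions. For Grm5 these were Lrrc7 (0.98), Dok6 (0.97) and Zfp804a (0.97). For Grm3 they were Mat2a (0.90), Daam2 (0.89) and Rnf20 (0.89), and for Grm7 they included Slc4a10 (0.89) and Slco3a1 (0.89). Grm8 had weaker matches, Zfp804b (0.82), Cntnap5a (0.82) and Unc5d (0.81). The matches of the scarce genes, led by Olfr46 for Grm2 (0.98) and Rtbdn for Grm4 (0.97), rest on few UMIs. Between members, Grm5 and Grm7 had the highest correlation (0.74) and Grm3 and Grm5 the lowest (-0.55).

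The age comparison set 3 old against 3 young ad libitum libraries, and it is the contrast through which Grm8 was known when the genes were picked. Grm8 in granule-like nuclei showed the widest gap. The young libraries had 49.2, 70.7 and 60.7 CPM, from 1214 to 1361 UMIs of the gene each. The old ad libitum libraries had 169, 181 and 220 CPM. Every old library lay above every young one, and the means were 60.2 ± 10.8 and 190 ± 26.4 (SD, n = 3 each). The fitted difference was 1.83 ± 0.12 on the log2 scale (old minus young, SE, edgeR). The fit rescales the library totals (TMM), which was not done for the CPM levels. Fitted differences therefore need not equal ratios of CPM means. Of the 16902 genes tested in granule-like nuclei, 18 had a larger fold, and 17.3% had old above young without overlap. An adjusted p below 0.05 was reached by 3.21% of them. Without the libraries numbered 1 the difference was 1.80 ± 0.15.

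The share of nuclei with a Grm8 UMI showed the same order. After thinning to 1000 UMIs, a Grm8 UMI was found in 4.83%, 6.72% and 5.84% of granule-like nuclei of the young libraries and in 12.8%, 14.7% and 17.5% of those of the old ad libitum libraries. Astrocyte-like nuclei, with the lowest Grm8 level of the larger classes, had 1.43% after thinning over all libraries, at a median depth of 2700 UMIs against 6369.

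**Figure D3:**
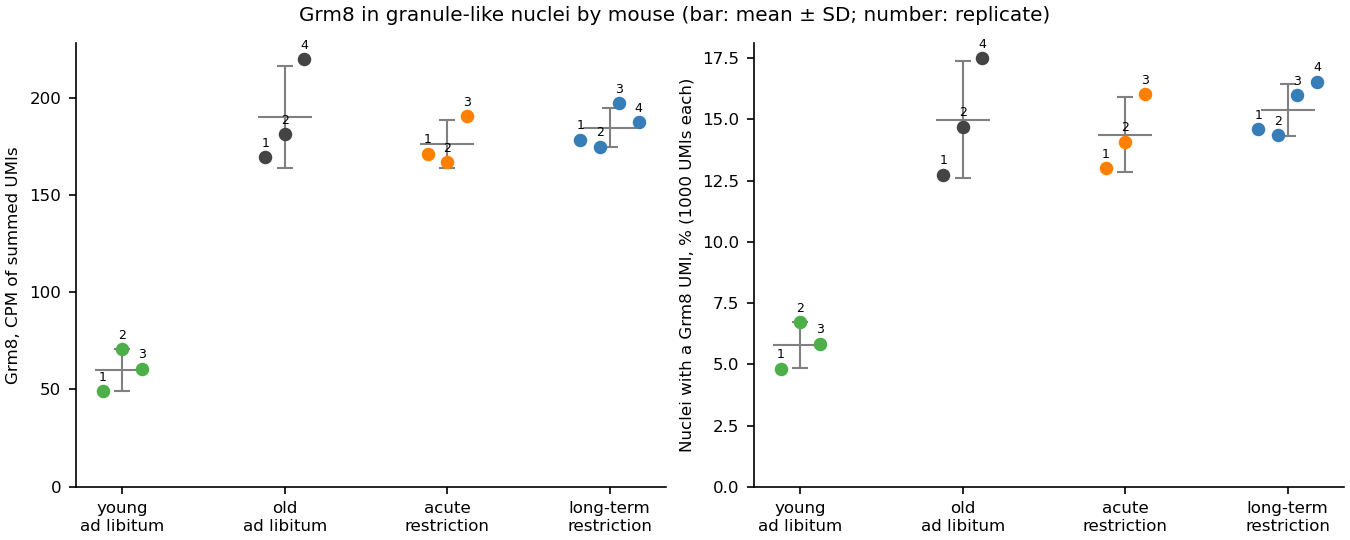
Grm8 in granule-like nuclei of each mouse, as CPM and as percent of nuclei with a UMI after thinning to 1000 UMIs, by group, with numbered points for replicates and bars for mean ± SD. The 3 young points, 49.2 to 70.7 CPM, lie below all 10 old points, which run from 167 to 220.

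The make-up of the granule class changed with age as well. Cluster 0, the largest of the 8 granule clusters, held 1.53% to 7.68% of granule-like nuclei in the young libraries and 24.2% to 40.6% in the old ad libitum libraries. Cluster 15, in turn, held 35.2% of the granule-like nuclei of young replicate 2. Grm8 was therefore also read inside each of the 7 clusters that had enough nuclei. In all 7, the old libraries lay above the young without overlap, against 76 of the 16902 genes, or 0.45%, for which this held. Grm8 was picked with its rise in these same libraries in view, so nothing is read from that share. The means rose from 25.4 to 98.6 CPM in cluster 6 (log2 difference 1.95), from 115 to 226 in cluster 0 (0.97) and from 242 to 424 in cluster 12 (0.81). Within cluster 0 alone the fitted difference was 1.04 ± 0.14, below the value for the whole class. With the clusters weighted equally, a calculation added after seeing the data, the young libraries had 88.6, 96.9 and 88.0 CPM and the old ad libitum libraries 208, 193 and 226.

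**Figure D4:**
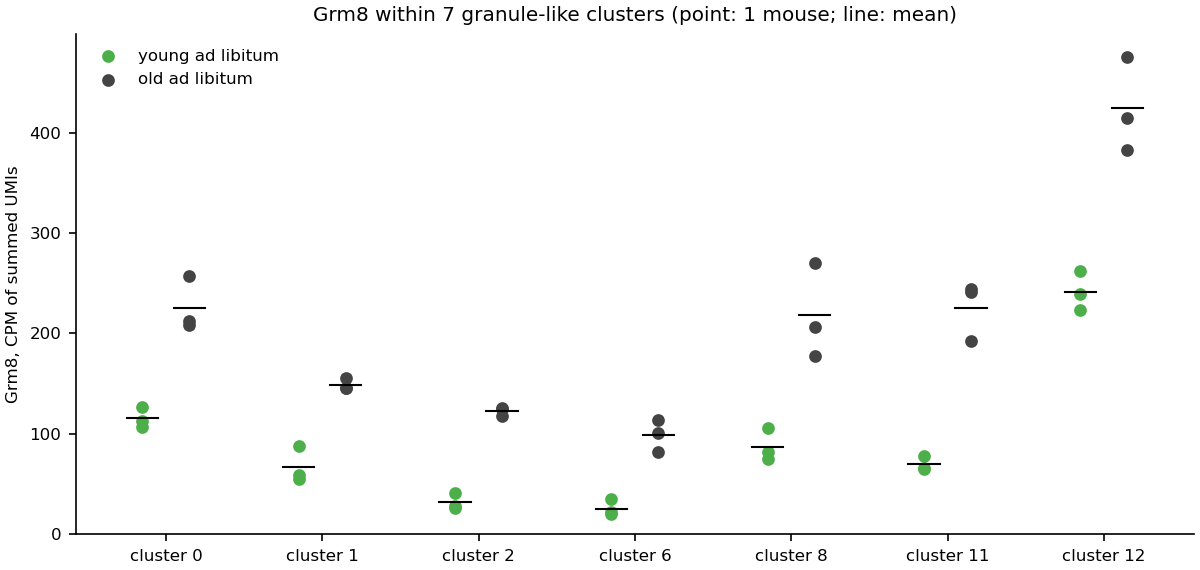
Grm8 in CPM in each of 7 granule clusters, with 1 point per mouse for the young and old ad libitum groups and a line at the mean. In every cluster the old points lie above the young points, and cluster 12 has the highest level in both groups.

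Grm8 was higher with age in 8 of the 9 classes tested. Its age difference was 0.06 ± 0.17 in inhibitory-like nuclei and 0.30 ± 0.45 in CA1-like nuclei. Astrocyte-like nuclei had 0.62 ± 0.46 and precursor-like nuclei 1.39 ± 0.62. The precursor-like groups overlapped, and their young libraries held only 1 to 8 Grm8 UMIs each. None of these differences passed the adjusted threshold. In Vip-like interneurons, where Grm8 was high, the group means were 1312 ± 153 CPM in young and 1362 ± 381 in old ad libitum libraries (SD, 3 each). CA3-like nuclei had 11.9, 4.96 and 18.7 CPM in young libraries and 61.3 and 22.1 in the 2 old ad libitum libraries with enough nuclei, a difference of 1.66 ± 0.44 that did not pass the adjusted threshold. The value of 4.96, from young replicate 2, rested on 1 UMI in 26 nuclei. Differences between classes were not tested.

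In oligodendrocyte-like nuclei Grm8 and Grm5 were both low and both higher with age. Grm8 had 56.6, 35.4 and 26.9 CPM in the young libraries, from 5, 32 and 28 UMIs, and 89.2, 77.6 and 95.9 in the old ad libitum libraries (1.45 ± 0.25). Grm5 had 56.6, 71.9 and 102 CPM in the young and 173, 291 and 216 in the old libraries (1.50 ± 0.34). In CPM neither gene's groups overlapped. In thinned shares of nuclei with a UMI, Grm8 had 4.26%, 2.75% and 2.51% in the young and 9.26%, 6.96% and 7.97% in the old ad libitum libraries, again without overlap. For Grm5 the shares were 6.38%, 8.42% and 8.88% in the young and 5.56%, 25.8% and 21.2% in the old libraries. The groups thus overlapped for Grm5, with old ad libitum replicate 1 (110 nuclei, 70 Grm5 UMIs) below every young library. In that class 14.2% of genes had old above young without overlap, and 7.87% passed the adjusted threshold. Both members span over 200 kb, and of the genes of at least 200 kb 31.2% passed there. The Grm5 difference was 1.26 without old ad libitum replicate 2 and 1.36 without young replicate 2, and in both cases it missed the adjusted threshold. The class joins 2 clusters. Cluster 3 (7695 nuclei) overlapped for Grm8, with 52.3, 35.1 and 17.2 CPM in young and 44.2, 57.3 and 66.8 in old ad libitum libraries. Cluster 16 (2305 nuclei) had more Grm8, with 40.0 and 77.0 CPM in the 2 young libraries with enough nuclei and 182, 116 and 133 in the old ones. It held 29 of 732 and 76 of 624 oligodendrocyte-like nuclei in those young libraries, against 31 of 110, 450 of 1648 and 379 of 1022 in the old, and the part of this mix in the age difference was not tested. For Grm5, cluster 3 had 87.1, 70.2 and 116 CPM in young and 236, 319 and 239 in old ad libitum libraries, without overlap, while cluster 16 overlapped. With median UMIs per nucleus as a covariate, Grm8 (1.47) and Grm5 (1.32) in the whole class both missed the adjusted threshold. Without the libraries numbered 1 the differences were 1.47 for Grm8 and 1.52 for Grm5.

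UMIs of neuronal marker genes in glial classes were read beside these values. The Grm5 level in oligodendrocyte-like, astrocyte-like and microglia-like nuclei was 6.86%, 6.90% and 8.44% of the granule-like level, and that of the granule marker Dsp was 6.98%, 5.36% and 21.9%. Dsp is 1 of the 7 granule markers, and the shares of the others are not given here. No expression of Grm5 in these glial classes is read from shares of that size. For Grm8 the medians were 76.1 CPM in oligodendrocyte-like and 175 CPM in granule-like nuclei. The 7 granule markers summed to 764 to 984 CPM in oligodendrocyte-like nuclei of young libraries and 912 to 917 in old ad libitum libraries, and none was at 0. Of these markers Trpc6 was higher with age there (1.48 ± 0.35), while Prox1 differed by 0.07 and C1ql2 by -0.57. The CA3 marker list summed to 124 to 155 CPM in young and 216 to 223 in old ad libitum libraries. Whether these marker UMIs came from neurons was not tested, nor was their part in the oligodendrocyte age differences.

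Precursor-like nuclei held the remaining called pair of member and class. Grm5 had 1267, 1016 and 1130 CPM in the young libraries and 1564, 1461 and 1508 in the old ad libitum libraries, with no overlap (0.47 ± 0.11). In this class 11.7% of genes had old above young without overlap, and 2.05% passed the threshold, or 8.08% of genes of at least 200 kb. The difference missed the threshold without young replicate 2 (0.40) and without any 1 of the 3 old ad libitum libraries (0.43 to 0.51). It also missed with the median UMIs per nucleus as a covariate (0.28). Without the libraries numbered 1 it was 0.53. The granule marker sum in these nuclei was 210 to 294 CPM in young and 243 to 261 in old ad libitum libraries. In granule-like nuclei, Grm5 had 2292, 1744 and 2310 CPM in young and 2465, 2490 and 2568 in old libraries (0.40 ± 0.14), and Grm7 differed by 0.38 ± 0.14. Young replicate 2, the shallowest library, was the lowest in both genes, and neither difference passed the adjusted threshold. The Grm5 value ran from 0.06, with the length trend removed, to 0.51 over the alternatives, and 4 of 23 of these passed.

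Over all classes with enough libraries, 44 pairs of member and class were tested, and 36 were higher and 8 lower in old mice. As a description of the contrast that the choice of genes drew on, the adjusted threshold of 0.05 was passed by 4 pairs, all higher: Grm8 in granule-like and oligodendrocyte-like nuclei and Grm5 in oligodendrocyte-like and precursor-like nuclei. Of all gene and class pairs, 1.81% passed, and 1.04% passed as higher. Nothing about the members is read from that gap. The median difference of the 44 pairs was 0.29, against -0.02 over all 95757. Grm7 was higher in all 10 of its classes, by 0.10 to 1.53, but none passed the threshold, and in granule-like nuclei its difference was -0.00799 with the length trend removed.

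Length moved with this direction. In granule-like nuclei the 1061 genes of at least 200 kb had a median age difference of 0.32 against -0.04 for all genes, and 16.6% of them passed the threshold. The medians were 0.46 against 0.01 in oligodendrocyte-like nuclei and 0.27 against -0.01 in precursor-like nuclei. Grm3, Grm5, Grm7 and Grm8 all exceed that length. Of the 1061 long genes, 2 had a larger fold than Grm8 in granule-like nuclei. With the trend over length removed, Grm8 in granule-like nuclei differed by 1.43, Grm8 in oligodendrocyte-like nuclei by 0.69, Grm5 in oligodendrocyte-like nuclei by 0.85 and Grm5 in precursor-like nuclei by 0.16. Grm8 in oligodendrocyte-like nuclei and Grm5 in precursor-like nuclei then missed the threshold. The part of length in the age differences was not tested.

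No group II gene passed the threshold with age in the classes where it was tested, 2 for Grm2 (granule-like and CA1-like) and 9 for Grm3. Grm3 differences ran from -0.60 to 0.36 over 9 classes. The lowest was in inhibitory-like nuclei (-0.60 ± 0.38), where the young libraries, with 37.8, 118 and 95.5 CPM, overlapped the old ad libitum libraries, with 41.3, 54.5 and 56.4. Grm3 differed by 0.28 ± 0.15 in astrocyte-like nuclei and 0.32 ± 0.12 in oligodendrocyte-like nuclei. Grm2 in granule-like nuclei had 30.3, 27.3 and 23.9 CPM in young libraries and 24.1, 23.0 and 21.5 in old ones (-0.09 ± 0.13), and these ranges overlapped.

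The restriction comparisons set the long-term and the acute group against the same 3 old ad libitum libraries, so these comparisons share their controls. No member passed the adjusted threshold in any class (edgeR quasi-likelihood test, Benjamini-Hochberg adjustment), with 44 pairs tested each time. Over all genes and classes 0.0522% of pairs passed for long-term restriction, 0.262% for acute restriction and 0.0136% for long-term against acute restriction. At an unadjusted p under 0.05 there were 1, 4 and 4 member pairs of 44, and 4697, 5072 and 2886 of all 95757 pairs. The smallest adjusted p was 0.583 for long-term restriction, 0.0897 for acute restriction and 0.263 between the restricted groups. Medians over the 44 pairs were -0.02, -0.03 and 0.04.

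Grm8 in granule-like nuclei stayed at the old level under both diets. The acute group had 171, 167 and 190 CPM, and the long-term group 178, 175, 197 and 187. These ranges overlapped that of the old ad libitum libraries, with differences of -0.11 ± 0.12 and -0.03 ± 0.11. Thinned shares of the 3 acute libraries reached 16.0%, and those of the 4 long-term libraries ran from 14.4% to 16.5%. In 1293 of the genes tested in granule-like nuclei, 7.65%, all 10 old libraries lay above the 3 young ones as they did for Grm8.

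The oligodendrocyte-like nuclei held the smallest adjusted p-values of both contrasts that involve acute restriction. Grm8 there had 41.9, 45.4 and 76.1 CPM under acute restriction, each below the old ad libitum range of 77.6 to 95.9 (-0.65 ± 0.20, adjusted p = 0.0897, edgeR). The acute group lay below the old ad libitum group without overlap for 10.3% of genes of that class. Within cluster 3 the acute libraries (40.1, 27.6 and 68.1) overlapped the old ad libitum ones, and within cluster 16 the acute libraries (47.3, 99.6 and 99.0) lay below them. Long genes were lower in the class as well: the 892 genes of at least 200 kb had a median difference of -0.23, against -0.01 for all genes, and 7.51% of them passed the threshold. With the length trend removed, Grm8 differed by -0.36 and Grm7 by -0.19. Grm7 had 921, 1046 and 1553 CPM under acute restriction against 1893, 1482 and 1481 (-0.52 ± 0.17, adjusted p = 0.151, edgeR), and its ranges overlapped. Acute replicate 3 was the high library in both genes. Without it the differences were -0.99 and -0.75, and both passed. Leaving out the highest library of the lower group widens such a difference. The share of all genes that passed without it is not given here, so nothing is read from these passes. Without the libraries numbered 1 they were -0.53 and -0.19, and neither passed.

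Long-term restriction left the same genes near the old ad libitum level. Grm8 had 80.0, 77.0, 73.6 and 98.4 CPM and Grm7 1739, 1503, 1676 and 1971. Against acute restriction, Grm7 was 0.59 ± 0.16 higher (adjusted p = 0.263, edgeR) and Grm8 0.56 ± 0.19 higher (adjusted p = 0.433, edgeR). Grm5 in oligodendrocyte-like nuclei, with 76.9, 168, 248 and 130 CPM under long-term restriction, had the smallest adjusted p of the long-term contrast (-0.52 ± 0.27, adjusted p = 0.583, edgeR). Grm3 there had 1912, 2052 and 2141 CPM in old ad libitum, 2062, 2387 and 2350 under acute and 2453, 2045, 2402 and 2144 under long-term restriction, with overlapping ranges.

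**Figure D5:**
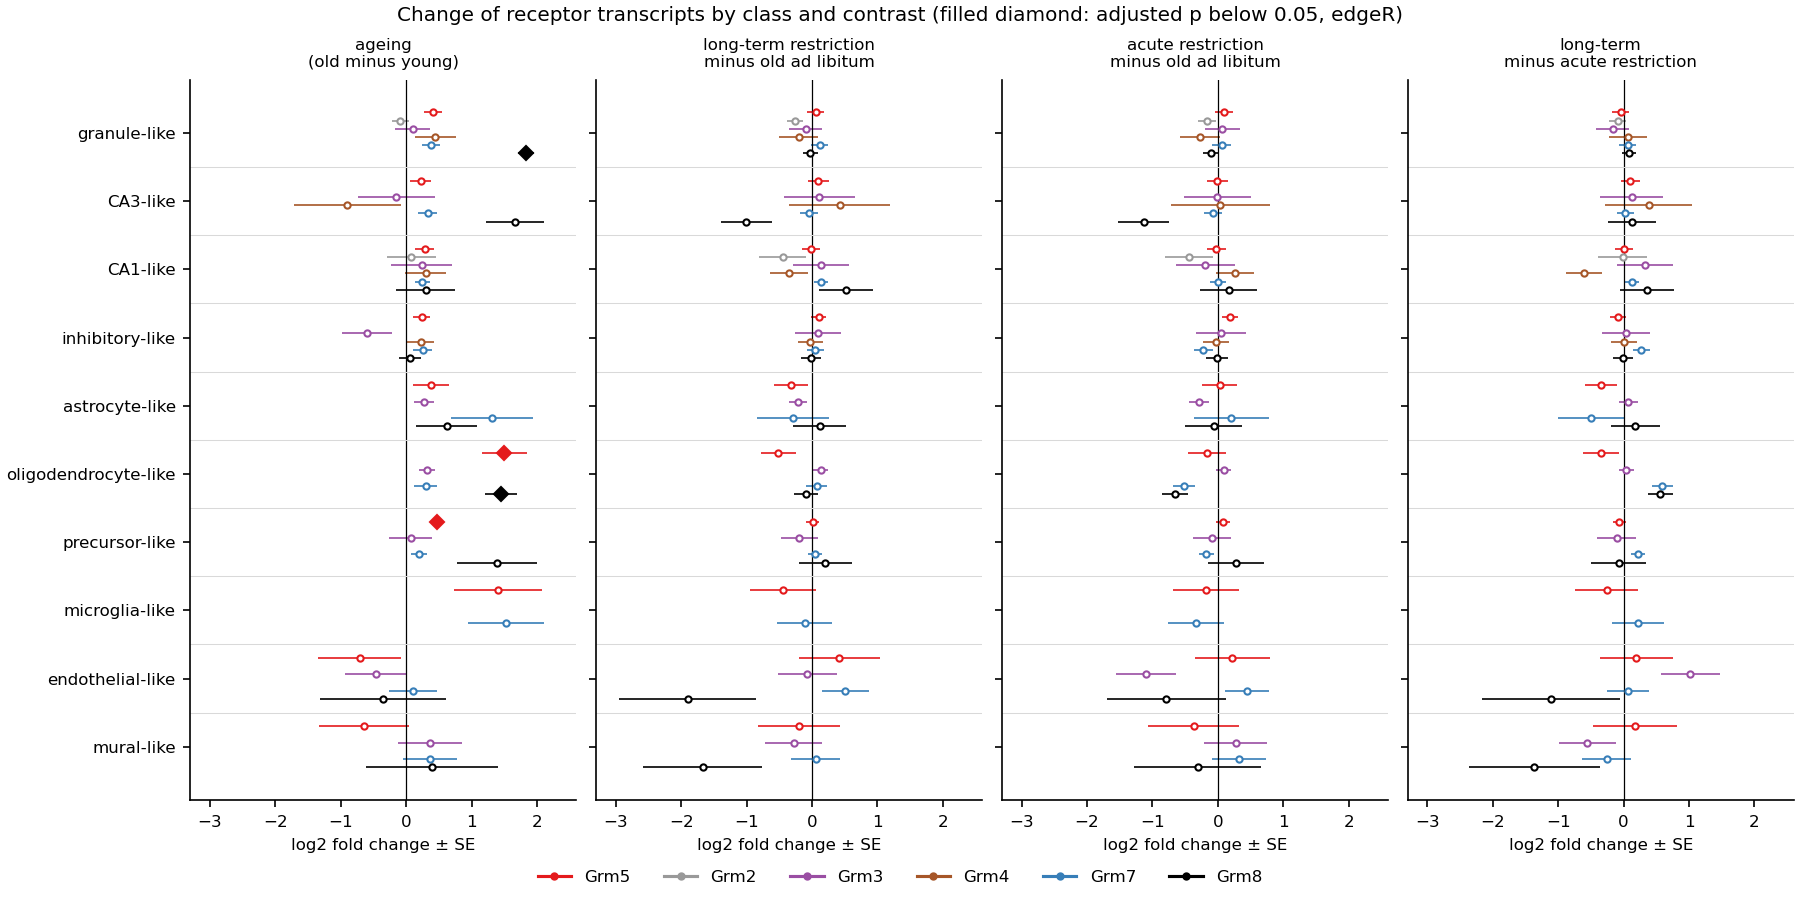
Fitted log2 differences with SE of each member in each class tested, for age, for both restriction contrasts and between the restricted groups. Filled diamonds mark an adjusted p below 0.05. Grm8 in granule-like nuclei stands at 1.83 for age and near 0 for both diets.

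The genes that work with these receptors were read from 5 lists. Among genes of Gq, phospholipase C and calcium release, which carry the group I signal, 138 gene and class pairs were tested for age, of which 12 were called higher and 0 lower. Over all genes and classes, 1.04% of pairs were called higher and 1.81% called in either direction. In granule-like nuclei 5 of 16 pairs of this list were called higher, and in oligodendrocyte-like nuclei 5 of 14. In these 2 classes 3.21% and 7.87% of all genes passed in either direction. Of genes of at least 200 kb, 16.6% and 31.2% passed. The part of class and gene length in the list counts was not tested. The lists were chosen with earlier results known, so nothing about them is read from these counts. Among the Gi/o, adenylyl cyclase and potassium channel genes of group II and III signalling, 10 of 157 pairs were higher and 0 lower. Of postsynaptic scaffold pairs 3 of 70 were higher, of receptor partners 1 of 61 was higher and 1 lower, and of the 63 pairs of glutamate release and uptake 0 passed.

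In granule-like nuclei the largest listed differences with age were those of Plcb4, a phospholipase C (1.43 ± 0.25), Adcy8, a calcium-stimulated adenylyl cyclase (0.68 ± 0.16), and Dgkg, a diacylglycerol kinase (0.67 ± 0.13). In oligodendrocyte-like nuclei they included Adcy8 (1.90 ± 0.57) and Elfn1, a synaptic adhesion protein that recruits group III receptors, which was lower (-1.81 ± 0.54) although its groups overlapped. Itpr1, a calcium release channel, was higher in precursor-like nuclei (1.04 ± 0.21), Dgkb in microglia-like nuclei (2.02 ± 0.40) and Adcy9 in astrocyte-like nuclei (0.60 ± 0.13). In the last 2 classes 1.3% and 0.392% of genes passed the threshold. No listed gene was called in any of the 3 restriction comparisons.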

How the data were processed

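The deposited matrices hold UMI counts per gene and barcode, which the authors made with Cell Ranger 4.0.0 on mm10, per the submitters' processing notes. Barcodes under 500 genes or over 5% mitochondrial UMIs were dropped, and the highest Scrublet scores, 0.8% per 1000 barcodes, were removed as doublets. Nuclei were clustered with scanpy 1.11.5 (2000 variable genes without metabotropic receptors, 30 components, 20 neighbours, Leiden resolution 2, and 0.5 for inhibitory sub-clusters). Counts were summed per library and class where at least 20 nuclei were present. Sums of 10 classes were tested with edgeR 4.0.16 (TMM, filterByExpr, robust quasi-likelihood) over all 4 groups, adjusted over all genes of a class, and DESeq2 1.42.0 was an alternative. The 6 members are named everywhere, with the 3 genes most like each and, per class, the 3 called list genes of largest change with age. Members and lists were chosen with earlier results of these data known. On data simulated for granule-like nuclei (16902 genes), 90% of 4-fold and 44% of 2-fold changes were called, with 8 of 16702 unchanged genes. Some genes that this rule names are not reported here. No sequence is printed.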

Additional observations from a re-analysis of the deposited data

Results flagged for a closer look

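In 31 groups of 4 libraries, 1 for each member and class, the highest and the lowest library were compared with the rest, and 2 libraries stood apart. Chance sets about 1 in 20 such groups apart. Grm7 in microglia-like nuclei of long-term restriction replicate 3 had a log2 CPM of 9.04, against 7.72 to 7.77 in the other libraries of that group. Grm8 in inhibitory-like nuclei of long-term restriction replicate 2 had 7.65, against 8.40 to 8.48.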

How the results depend on the processing

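The counts here are pairs of member and class. Against 4 pairs called with age, no filter on low counts gave 7 and median UMIs per nucleus as a covariate 1 (Grm8 in granule-like nuclei). Removal of the length trend gave 2 and, chosen after seeing the data, leaving out the libraries numbered 1 gave 7. With the replicate number as a block 8 were called, but the labels do not tie the numbers and libraries of like number did not all deviate together. Leaving out 1 library gave 2 to 5, and the 2 came without young replicate 2. For long-term restriction the replicate block gave 1 call (Grm5 in oligodendrocyte-like nuclei) and leaving out 1 library 0 to 1. For acute restriction no filter gave 2, the replicate block 1 (Grm7 in oligodendrocyte-like nuclei) and leaving out 1 library 0 to 2. For long-term against acute restriction, no filter gave 1, the replicate block 1 and leaving out 1 library 0 to 1. The shares of all genes called under these settings are not given here, so the moves are not read as results about the members. The causes of these moves were not tested. The age value of Grm8 in granule-like nuclei, known when the genes were picked, ran from 1.04 to 1.93 over 23 alternatives. Grm7 in granule-like nuclei turned to -0.00799 with the length trend removed. Depth limits Grm2 and Grm4, whose levels rest on few UMIs in most classes (Grm4 in mossy-like nuclei on 54).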

Other observations

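Some clusters that the markers did not name held more Grm8 than any named class, and they are listed here because of that level. Cluster 9 (3237 nuclei, with Hs3st2, Hs3st4 and Cwh43 among its leading genes) had a median of 1365 CPM of Grm8 (1051 to 1650) and 684 of Grm3. Cluster 25 (1180 nuclei, led by Wfs1 and Esr2) had 1295 of Grm8 and 3649 of Grm7. Cluster 24 (1313 nuclei) had 1279 of Grm8, with 42.4 of Grm4, and cluster 22 (1514 nuclei, led by Stac and Fras1) had 1115 of Grm8 and 4362 of Grm5. Cluster 7 (3892 nuclei, led by Npsr1 and Vwc2l) had 739 of Grm8 (578 to 878, 12 mice). Grm3 was lower in cluster 22 and cluster 25 than in cluster 9. In cluster 9 the young libraries had 1115, 1205 and 1499 CPM of Grm8 and the old ad libitum libraries 1396, 1537 and 1650, with overlap.

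The highest Grm4 level seen in more than 1 library was 53.3 CPM (40.7 to 77.2, 7 mice) in the unnamed cluster 34. A single higher value, 223 CPM from 18 UMIs, was in a cluster of 43 nuclei led by Gabra6 and Fat2. The median UMI count of its nuclei was 0.32 of that of their own samples, and 1 library held at least 20 of its nuclei, so the value has no replicate.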
